A study of Mus musculus with 58 samples.

Results

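The genes described here are 8 known targets of the fatty acid receptor PPAR-alpha that also respond to fasting: Cpt1a, Ehhadh, Cyp4a10, Cyp4a14, Acot1, Pdk4, Fgf21 and Vnn1. They were taken by name, by matching the accession of each array probe to a gene symbol, and not by their values. They were read by 11 of the 55681 probes of the array, and are 8 of the 20018 genes that the probes could be matched to. All 8 could be tested in liver, with all 11 probes. In lung and in forestomach, 6 of the 8 could be tested, because Cyp4a14 and Fgf21 were not well above background in the tissue channel on any array of those tissues.

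Muta™Mouse males aged 10 weeks, whose genome holds a bacterial lacZ transgene used to score mutations, received benz(a)anthracene (BaA) by gavage each day for 28 days. BaA is a hydrocarbon of fused aromatic rings, and olive oil was its vehicle. The daily dose per kg of body weight was 0 mg in group D0, 20 mg in D1, 40 mg in D2 and 80 mg in D3, so that every mouse, the controls included, was given a fat by mouth each day. The 3 tissues (lung, liver and forestomach) were collected 72 h after dosing ended. Each group had 5 mice, except that D3 liver had 4 and D0 forestomach had 4, since the liver of mouse 20 and the forestomach of mouse 5 were not analysed here. The labels number separate mice 1 to 20, so tissues that share a number came from 1 animal. Food was freely available to all groups, and no fasted group was compared. The tissue was a piece of a whole organ, so fewer cells of a type and less RNA per cell cannot be told apart.

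PPAR-alpha is a nuclear receptor that binds DNA with RXR when fatty acids or fibrate drugs occupy it. In the fasted liver, fatty acids released from fat switch on genes for their import into mitochondria, for beta-oxidation in mitochondria and peroxisomes, and for omega-oxidation by the Cyp4a enzymes. Liver is the tissue best known for this response, and several of its genes also follow the daily cycle of feeding and the circadian clock.

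The promoters of 3 genes are shown because the results turn on them, or because they carry the letters of a known binding site. They are RefSeq sequences of mouse assembly GRCm38.p6, read 5′ to 3′ on the strand of the gene, from 250 bases before the annotated start to 50 after it. Capitals mark matches on either strand to AGGTCA (the half-site of nuclear receptors), to AGGNCANAGGNCA (a direct repeat of that half-site with 1 base between, the form bound by PPAR-alpha and RXR), or to CACGTG (the E-box bound by the clock factors and by several others). The direct repeat overlaps a half-site where both are present. Cpt1a (chr19:3323051-3323350, plus strand) held 1 half-site, its first base at -94 from the start, Fgf21 (chr7:45615441-45615740, minus strand) held 1 E-box at -50, and Fabp1 (chr6:71199629-71199928, plus strand), a fatty acid binding protein gene that is no member but rose in lung, held the direct repeat at -67 and a further half-site at -9.
Cpt1a: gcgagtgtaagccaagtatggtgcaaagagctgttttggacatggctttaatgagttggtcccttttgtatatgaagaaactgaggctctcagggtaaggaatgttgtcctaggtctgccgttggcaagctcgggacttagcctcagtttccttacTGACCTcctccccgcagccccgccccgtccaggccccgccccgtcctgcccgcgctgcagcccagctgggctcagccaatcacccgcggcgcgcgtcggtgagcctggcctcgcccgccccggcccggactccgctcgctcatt
Fgf21: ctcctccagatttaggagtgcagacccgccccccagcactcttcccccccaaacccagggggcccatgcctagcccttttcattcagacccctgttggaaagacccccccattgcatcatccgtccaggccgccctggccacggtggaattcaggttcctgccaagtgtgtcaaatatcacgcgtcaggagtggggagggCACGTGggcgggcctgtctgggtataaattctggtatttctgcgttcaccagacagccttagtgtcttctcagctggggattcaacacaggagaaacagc
Fabp1: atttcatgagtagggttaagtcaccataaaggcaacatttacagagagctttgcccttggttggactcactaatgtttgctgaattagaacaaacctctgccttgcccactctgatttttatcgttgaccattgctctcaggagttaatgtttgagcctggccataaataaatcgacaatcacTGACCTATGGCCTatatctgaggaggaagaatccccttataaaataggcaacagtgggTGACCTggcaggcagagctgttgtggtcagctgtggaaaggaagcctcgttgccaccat
Over all 32851 promoters of the same length, 16.3% held AGGTCA, 0.381% held AGGNCANAGGNCA and 7.15% held CACGTG. Of the members, 5 had a promoter in the table (Acot1, Cpt1a, Ehhadh, Fgf21 and Pdk4), of which 1 held the half-site, 0 the direct repeat and 1 the E-box. These matches describe the letters of a short window and are not binding sites shown by these data.

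Expression was measured as the log2 ratio of the tissue RNA, labelled with Cy5, to a universal mouse reference RNA, labelled with Cy3, on 58 two-colour arrays normalised by loess. A ratio of 0 means that tissue and reference gave the same signal, and only ratios of the same probe were compared. Precision was limited by the number of arrays. Between 34.1% and 69.2% of spots were well above background per array, and 6 forestomach arrays of 1 slide lay between 38.4% and 42.1%. The defining markers of each tissue were bright enough to be tested there, with all 8 hepatocyte markers in liver, all 8 lung markers in lung and all 8 squamous epithelium markers in forestomach. Markers of other cell types were too, with all 8 hepatocyte markers in forestomach and all 8 heart muscle markers in both lung and forestomach. All 10 markers of the glandular stomach were also tested in forestomach, and their summed level varied widely between pieces, as given below with the forestomach values.

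**Figure D1:**
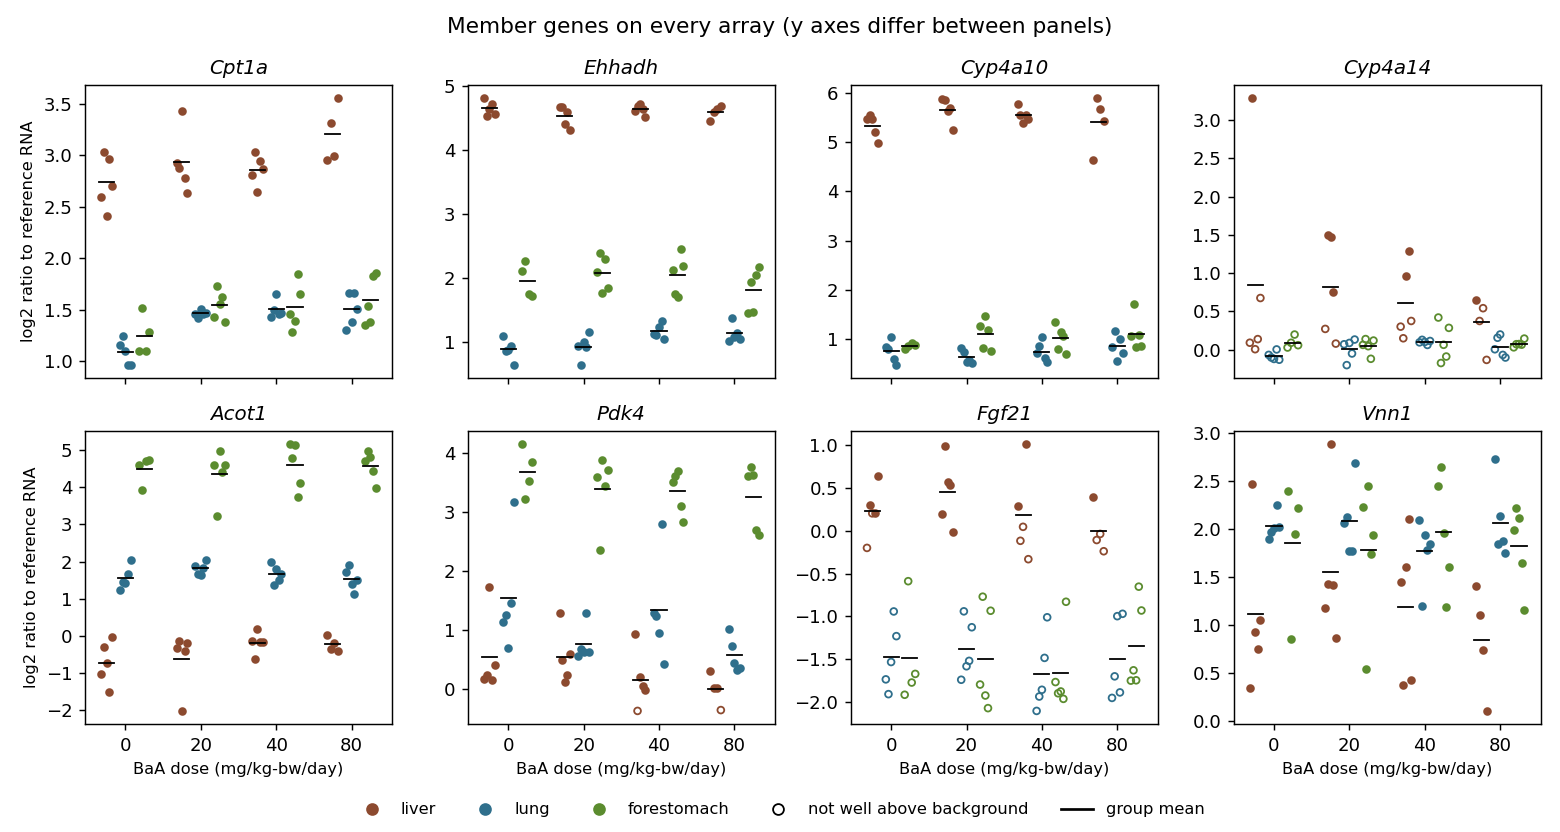
Each point is 1 array, the x axis is the BaA dose in mg/kg-bw/day, the y axis is the log2 ratio to the reference RNA, and the horizontal lines are group means. Cyp4a10 and Ehhadh sat far higher in liver than in the other tissues at every dose, Acot1 and Pdk4 were highest in forestomach, and open points, which were not well above background, make up all lung and forestomach values of Cyp4a14 and Fgf21.

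The first question was whether BaA moved the members within a tissue. A gene was called where a dose group differed from D0 by at least 1.5-fold at an adjusted p of at most 0.05 (limma, Benjamini-Hochberg over all probes tested in the tissue). No member was called at any dose in any tissue. In liver this was 0 of 8 at D1, D2 and D3, where 0.241%, 0.588% and 0.435% of the 22784 probes tested were called. In lung it was 0 of 6, against 0%, 0.556% and 1.88% of 30382 probes. In forestomach it was 0 of 6, against 0%, 0.0124% and 0.0248% of 32316 probes. At an unadjusted p of 0.05, 1 member passed at D3 in liver, 1, 2 and 3 passed at D1, D2 and D3 in lung, and 1, 0 and 1 passed in forestomach. The share of all probes that passed at this unadjusted p is not given, so these counts do not set the members apart from other genes.

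Cpt1a, which codes for the liver-type carnitine palmitoyltransferase that admits long-chain fatty acids to mitochondria, was the member with a measurable dose difference, in lung. Its lung log2 ratios were 1.16, 1.24, 1.10, 0.97 and 0.96 in the D0 mice and 1.46, 1.43, 1.51, 1.46 and 1.47 in the D1 mice. They were 1.43, 1.503, 1.66, 1.46 and 1.47 in the D2 mice and 1.30, 1.66, 1.38, 1.67 and 1.51 in the D3 mice. All 15 dosed lungs lay above all 5 control lungs, with the lowest dosed array (1.30, at D3) next to the highest control array (1.24). Of all probes tested in lung, 0.138% were separated in this direction. The dose groups themselves overlapped one another. The rise was 0.38 ± 0.08 (SE) at D1, 0.42 ± 0.08 at D2 and 0.42 ± 0.08 at D3 on the log2 scale, or 1.30-, 1.34- and 1.34-fold, so each stayed under the 1.5-fold limit. The adjusted p (limma) was 0.172 at D1, 0.00686 at D2 and 0.00241 at D3. By adjusted p alone, 1 of 6 members was thus higher at D2 and 1 at D3, where 1.78% and 5.82% of all probes were higher.

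Along the doses, the slope of Cpt1a in lung was 0.35 per 80 mg/kg (adjusted p = 0.0258, limma), and it was the only one of the 6 members with a trend, where 11.6% of all lung probes had one. The values did not climb step by step, since D1 already lay at the level of D3. The trend was lost when any 1 of mouse 3, 4, 5, 17 or 19 was left out, with adjusted p up to 0.0653, while the differences at D2 and D3 passed in all 20 such refits, with adjusted p of at most 0.0258 and 0.00926. Within the 3 array slides, dosed lungs exceeded control lungs by 0.49, 0.45 and 0.27, and with slide as a block the adjusted p of the trend was 0.016.

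The second Cpt1a probe, which has a single spot per array where the first has 10, did not show the same. Its means were 0.23 ± 0.07 (SD, n = 5) at D0, 0.44 ± 0.10 at D1, 0.29 ± 0.14 at D2 and 0.30 ± 0.22 at D3. Its change was 0.21 at D1 (adjusted p = 0.623), 0.06 at D2 (adjusted p = 0.795) and 0.08 at D3 (adjusted p = 0.681). The 2 probes of Cpt1a therefore disagree on the size of the difference, and its groups overlapped on the second probe. Loess sets the centre of each array to 0. Under median centring, the median of all lung probes lay 0.18, 0.38 and 0.15 above D0 at D1, D2 and D3, and the Cpt1a differences were 0.65, 0.99 and 0.68 with adjusted p of 0.879, 0.327 and 0.952. Under median centring with slide as a block, chosen after seeing the data, they were 0.61, 0.73 and 0.68 with adjusted p of 0.0251, 0.000768 and 0.00109, past the 1.5-fold limit at all 3 doses.

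**Figure D2:**
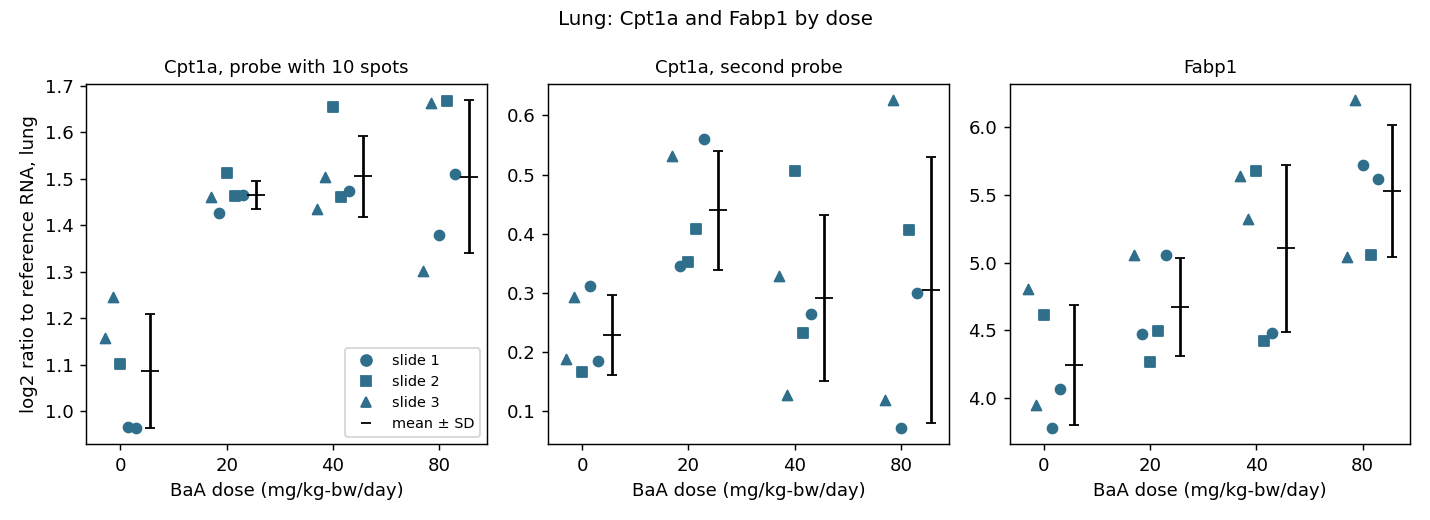
The y axes give the log2 ratio to the reference RNA in lung and the x axes the BaA dose in mg/kg-bw/day, with 1 point per array shaped by slide, and the bars are mean ± SD of 5 mice. The first Cpt1a probe separates control from dosed lungs, the second does not, and Fabp1 of D3 (5.04 to 6.20) lies above Fabp1 of D0 (3.78 to 4.81).

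In the other tissues Cpt1a did not pass. In liver the 5 D0 mice had 2.59, 3.03, 2.41, 2.96 and 2.70, and the 4 D3 mice had 2.96, 3.31, 2.99 and 3.55. The D3 livers lay at the upper end of the controls and above them, and the ranges overlapped. The difference was 0.46 ± 0.16 (SE, adjusted p = 0.167). In forestomach the differences from D0 were 0.30, 0.28 and 0.34, with adjusted p from 0.859 to 1.

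Ehhadh codes for the peroxisomal bifunctional enzyme of beta-oxidation. In lung its ratios were 1.09, 0.87, 0.88, 0.94 and 0.64 at D0 and 1.02, 1.38, 1.08, 1.15 and 1.05 at D3, so 1 control, at 1.09, lay above 3 of the 5 treated lungs and the other 4 controls lay below all of them. The difference of 0.25 ± 0.10 did not pass (adjusted p = 0.116), nor did the 0.29 at D2 (adjusted p = 0.14) or the slope (adjusted p = 0.0723). In liver Ehhadh was the steadiest member. All 19 livers lay between 4.32 and 4.81, and its SD within groups of 0.12 was smaller than that of most probes, since only 12.4% of the 22784 liver probes tested had a smaller one. Its D3 difference in liver was -0.05 (adjusted p = 0.831) and in forestomach -0.14 (adjusted p = 1).

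Cyp4a10 and Cyp4a14 code for fatty acid omega-hydroxylases and are among the most strongly inducible PPAR-alpha targets of mouse liver. Cyp4a10 in liver was 5.46, 5.55, 5.46, 5.20 and 4.99 at D0, against 4.63, 5.89, 5.67 and 5.42 at D3. One D3 liver lay below every control and 2 lay above every control, and the difference was 0.07 ± 0.19 (adjusted p = 0.915). Its other 2 probes gave -0.09 and 0.34 at D3 in liver (adjusted p = 0.953 and 0.414). Cyp4a10 has near-identical neighbours, and its signal across the 19 livers was most like that of one of them, Cyp4a31 (r = 0.87). Whether the probes also bind the transcripts of those genes was not tested.

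Cyp4a14 was dim and irregular in liver. The D0 livers gave 0.09, 3.28, 0.01, 0.14 and 0.67, with only mouse 2 well above background. The D1 livers gave 0.27, 1.502, 1.47, 0.75 and 0.08, the D2 livers 0.30, 0.15, 0.96, 1.29 and 0.38, and the D3 livers 0.65, 0.37, 0.54 and -0.13. The highest value of all belonged to a control mouse, and every dose group overlapped D0. The D3 difference was -0.48 ± 0.51 (adjusted p = 0.723). Over all 19 livers Cyp4a14 spanned 3.42 on the log2 scale, the widest of the 8 members, and 99.4% of liver probes varied less within groups.

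Acot1, which codes for a cytosolic acyl-CoA thioesterase, gave -1.03, -0.29, -0.73, -1.51 and -0.03 in the D0 livers. The D2 livers gave -0.14, -0.62, 0.18, -0.16 and -0.17, and the D3 livers 0.02, -0.34, -0.18 and -0.41. The treated livers of both groups lay at the upper part of the control range and overlapped it, with differences of 0.54 ± 0.31 at D2 (adjusted p = 0.492) and 0.49 ± 0.32 at D3 (adjusted p = 0.517). In lung its D3 difference was -0.03 (adjusted p = 0.927) and in forestomach 0.09 (adjusted p = 1). Acot1 shares much of its sequence with other Acot genes, so its value is uncertain in the same way as that of Cyp4a10.

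Pdk4 codes for a kinase that shuts down pyruvate dehydrogenase and so spares glucose in fasting. In lung it was 1.14, 1.26, 0.70, 1.46 and 3.17 at D0 and 1.02, 0.73, 0.44, 0.34 and 0.36 at D3. At D1 it was 0.56, 0.67, 0.64, 1.29 and 0.63, and at D2 it was 1.29, 1.24, 0.95, 2.79 and 0.43. Of the 5 D3 lungs, 3 lay below every control, but the D3 difference of -0.97 ± 0.39 did not pass (adjusted p = 0.13, limma). The 2 lungs with the highest Pdk4 were also the highest in markers of other tissues. Mouse 5 (D0) had a skeletal muscle score of 5.59, where the median of the D0 lungs was -0.35, and a brown fat score of 1.20, and mouse 14 (D2) had a fat score of 3.49 and a brown fat score of 2.02. The skeletal muscle score (5 of 8 markers tested) ran from -0.50 to 5.59 at D0 and from -0.57 to 1.96 at D3, the fat score (7 of 8) from -0.80 to 0.12 and from -0.97 to 0.30, and the brown fat score (3 of 5) from -0.42 to 1.20 and from -0.84 to 0.67. Of the 3 brown fat markers tested in lung, 1 was called at D3. It was Dio2, which fell (-0.61, adjusted p = 0.0429) and had a trend of -0.59 (adjusted p = 0.027). The median of the 3 markers was -0.51 at D3 and -0.15 for the trend. Dio2 did not follow the brown fat score of mouse 14, since its highest value at D2 was 1.07, under the D0 maximum of 1.41. A score is the mean of the markers' log2 ratios after centring each on all arrays of the tissue. Across the 20 lungs, which share 3 slides, Pdk4 followed the brown fat score with r of 0.85, the fat score with 0.63 and the skeletal muscle score with 0.63. These r pool all dose groups and include mice 5 and 14, and none is given without them. The heart muscle score (8 of 8) ran from -1.37 to 1.62 at D0 and from -1.92 to 1.38 at D3. The part of these tissues in the Pdk4 values was not tested. Without mouse 5, the D3 difference was -0.56 (adjusted p = 0.323).

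In liver Pdk4 was 0.17, 0.24, 1.73, 0.16 and 0.40 at D0 and 0.31, 0.03, 0.02 and -0.35 at D3. One control, mouse 3, stood high above the other 4, and the groups overlapped, with a D3 difference of -0.54 ± 0.30 (adjusted p = 0.434). In forestomach its differences were -0.29, -0.33 and -0.42 (adjusted p from 0.968 to 1).

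Fgf21, a hormone gene of the fasted liver, and Vnn1, a pantetheinase gene that tracks hepatic PPAR-alpha activity, also overlapped at every dose. Fgf21 in the D0 livers was -0.20, 0.30, 0.20, 0.21 and 0.64, of which 3 of 5 were well above background, and in the D3 livers it was 0.40, -0.11, -0.04 and -0.24, of which 1 of 4 was. The D3 difference was -0.23 ± 0.24 (adjusted p = 0.715). Vnn1 in liver was 0.34, 2.47, 0.92, 0.75 and 1.05 at D0, 1.17, 1.42, 2.89, 1.42 and 0.87 at D1 and 1.40, 1.11, 0.74 and 0.10 at D3. Its D3 difference was -0.27 ± 0.45 in liver (adjusted p = 0.837), 0.04 in lung (adjusted p = 0.933) and -0.03 in forestomach (adjusted p = 1). No member had a dose trend in liver, where 0.676% of probes had one, or in forestomach, where 0.0248% had one.

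The next question was whether BaA acted differently on these genes in different tissues. The D3 difference of each member was compared between tissues as an interaction in 1 model of all 58 arrays, for the 6 members tested in both tissues of a pair. None differed between liver and lung, where 2.06% of probes did, between liver and forestomach (0.0453%) or between lung and forestomach (0.257%). The adjusted p was at least 0.519 in every case, and the widest interaction was Pdk4 of lung minus forestomach, at -0.55 ± 0.51. At an unadjusted p of 0.05, 1 passed, Ehhadh of lung minus forestomach, at 0.40 ± 0.19 (adjusted p = 0.553), and the share of all probes that did is not given. For Cpt1a, liver minus lung was 0.04 (95% interval -0.32 to 0.41), and a p above the threshold does not show that the tissues responded alike.

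Where the members differed was between the tissues of the control mice. Cyp4a10, Ehhadh and Cpt1a were far higher in D0 liver than in D0 lung or forestomach, whereas Acot1 and Pdk4 were lowest in liver and highest in forestomach. Between liver and lung, 5 members were higher in liver, where 18.5% of 31302 probes were, and 3 were lower, where 28.1% were. Between liver and forestomach, 5 were higher (15.7% of 33030 probes) and 2 lower (23.4%). Between lung and forestomach, 0 were higher (16.2% of 34264 probes) and 3 were lower in lung (14.7%). The labels pair the tissues by mouse, and each of these counts was the same with the mouse as a replicate block.

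Ehhadh in the D0 livers was 4.81, 4.53, 4.64, 4.73 and 4.57, in the D0 lungs it was as given above, and in the D0 forestomachs it was 2.10, 2.27, 1.75 and 1.72. The 3 tissues did not overlap, in the order liver, forestomach, lung. Liver exceeded lung by 3.77 ± 0.13 (13.6-fold, adjusted p = 2.73e-31) and forestomach by 2.69 ± 0.14 (6.46-fold), and lung lay below forestomach by -1.08 ± 0.14 (2.11-fold, adjusted p = 2.11e-09).

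Cyp4a10 in the D0 lungs was 0.85, 0.81, 1.05, 0.60 and 0.47, and in the D0 forestomachs 0.81, 0.87, 0.93 and 0.88. Both tissues lay far below the livers, whose lowest D0 value was 4.99, and overlapped each other. Liver exceeded lung 23.8-fold and forestomach 22-fold (adjusted p = 3.46e-30 and 2.31e-28), while lung and forestomach differed by -0.11 (95% interval -0.47 to 0.24, adjusted p = 0.612). The other 2 Cyp4a10 probes were well above background on all 5 D0 livers but on only 1 and 0 of the 5 D0 lungs. For the latter probe, the fold of liver over lung is a lower bound, at least 23.2-fold, and for the former none is given. Cpt1a was higher in liver than in lung by 1.65 ± 0.12 (3.15-fold) and than in forestomach by 1.49 ± 0.13 (2.81-fold), and its lung and forestomach values (1.10, 1.51, 1.10 and 1.28) overlapped, with a difference of -0.16 (95% interval -0.43 to 0.10). Under median centring, which moved the median of all probes by -0.47 between liver and forestomach, the latter Cpt1a difference was 0.67 and did not pass (adjusted p = 0.154).

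Acot1 ran the other way. Its D0 forestomachs gave 4.60, 3.92, 4.71 and 4.73, its D0 lungs 1.24, 1.45, 1.42, 1.67 and 2.04, and its D0 livers the negative values given above. The tissues were fully separated, in the order forestomach, lung, liver. Liver lay below forestomach by -5.21 ± 0.30 (36.9-fold, adjusted p = 2.07e-21) and below lung by -2.28 ± 0.28 (4.86-fold), and lung lay below forestomach by -2.93 ± 0.30 (7.6-fold). Pdk4 had the same order of means, with 4.15, 3.22, 3.52 and 3.84 in the D0 forestomachs, and every one of these lay above all D0 lungs and livers. It was 8.82-fold lower in liver than in forestomach (adjusted p = 1.5e-10), 4.39-fold lower in lung than in forestomach (adjusted p = 2.22e-06) and 2.01-fold lower in liver than in lung (adjusted p = 0.00893). The last of these rests on the lung of mouse 5, and without mouse 5 it was -0.57 (adjusted p = 0.146).

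Fgf21 and Cyp4a14 were not well above background on any D0 lung or forestomach, so their folds are lower bounds. Fgf21 was at least 2.14-fold higher in liver than in lung and at least 2.08-fold higher than in forestomach, with fitted differences of 1.70 and 1.72 (adjusted p = 3.88e-07 and 1.41e-06). The dim Fgf21 ratios moved with the slide, between -1.23 and -0.94 on 1 lung slide and between -2.10 and -1.48 on the other two, and in forestomach between -0.93 and -0.59 on 1 slide and between -2.07 and -1.63 on the other two. Cyp4a14 was at least 1.19-fold and at least 1.29-fold higher in liver (adjusted p = 0.00598 and 0.0407), but this rests on mouse 2. Without it the differences were 0.31 (adjusted p = 0.182) and 0.13 (adjusted p = 0.625). Vnn1, with 1.90, 1.97, 2.01, 2.25 and 2.02 in the D0 lungs and 2.39, 0.85, 1.95 and 2.21 in the D0 forestomachs, was lower in liver than in lung by -0.92 ± 0.36 (adjusted p = 0.02), a call that ended without mouse 1, 3 or 4. Its liver values straddled those of lung through mouse 2. Against forestomach the difference was -0.74 ± 0.38 (adjusted p = 0.0867), and without mouse 2, the highest of the D0 livers and the lowest of the D0 forestomachs, it was -1.42 and passed (adjusted p = 0.00164).

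**Figure D3:**
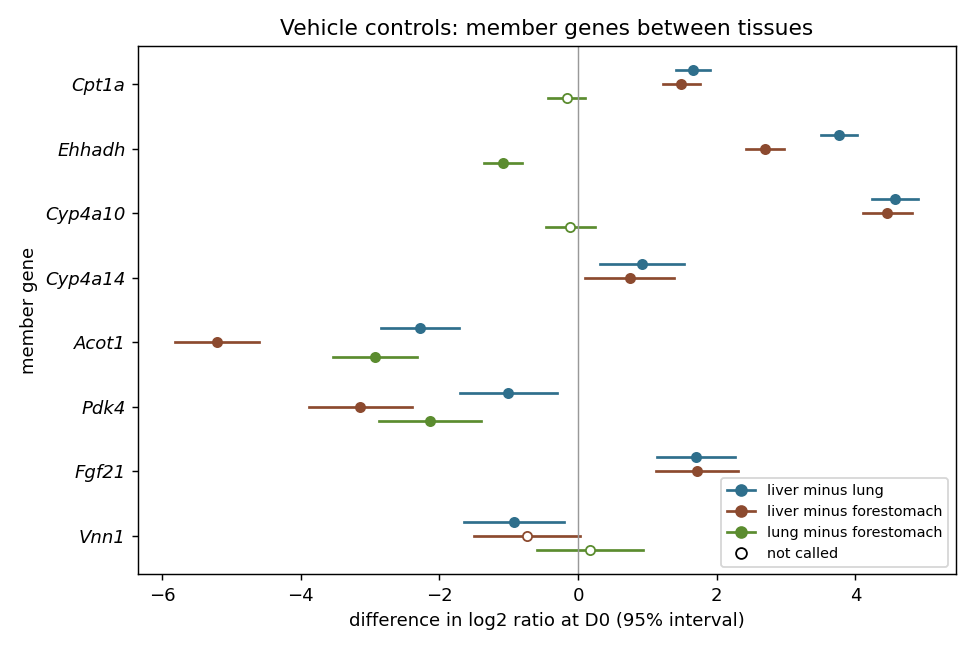
Each point is the difference in log2 ratio between 2 tissues of the vehicle controls (x axis) for 1 member gene (y axis), the lines are 95% intervals, and open points were not called. Cyp4a10 (4.57 and 4.46) and Ehhadh (3.77 and 2.69) lie furthest to the liver side, and Acot1 (-5.21) and Pdk4 (-3.14) furthest to the forestomach side.

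The receptor and the other genes of the pathway were taken from lists of general knowledge. Of 32 other PPAR-alpha targets, 26 were higher in D0 liver than in D0 lung and 2 were lower, where 18.5% and 28.1% of all probes were. Their median difference was 1.69 (-0.10 over all probes). Against forestomach 21 were higher and 2 lower, where 15.7% and 23.4% of all probes were, with a median of 1.19 (-0.06). Acot2, the mitochondrial relative of Acot1, was not well above background on any liver array. The receptor gene Ppara itself was 14.4-fold higher in liver than in lung and 3.07-fold higher than in forestomach (adjusted p = 5.97e-21 and 1e-07). Its partner gene Rxra was 2.73-fold and 1.96-fold higher in liver. The list of 12 receptors and co-regulators was divided, with 5 higher and 4 lower in D0 liver than in D0 lung (median 0.18). Against forestomach 5 were higher and 3 lower in liver (median -0.03).

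With dose, none of the 30 other targets tested in liver and none of the 31 in forestomach was called at any dose or had a trend. Their median D3 differences were 0.03 in liver and 0.10 in forestomach. In lung, 1 of 29 was called, at D3, where 1.88% of all lung probes were called. Fabp1 was 3.78 to 4.81 in the D0 lungs and 5.04 to 6.20 in the D3 lungs, with no overlap. It rose by 1.28 ± 0.28 (2.43-fold, adjusted p = 0.00706), and its slope was 1.27 per 80 mg/kg (adjusted p = 0.00316). Acadl and Acaa1b, acyl-CoA dehydrogenase and thiolase genes of beta-oxidation, had trends of 0.30 and 0.27 (adjusted p = 0.0236 and 0.0207). With Fabp1 that made 3 of 29 targets with a trend, where 11.6% of all lung probes had one. The median D3 difference over the 29 targets was 0.06, against 0.003 over all lung probes.

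Fabp1 is also abundant in hepatocytes. Of the 5 hepatocyte markers tested in lung, 0 were called at D3, with a median difference of 0.53. Apoa2 was higher by 0.53 (adjusted p = 0.0324), under the fold limit, and had a trend of 0.55 (adjusted p = 0.0146). Serpina1c was at 1.04, Cyp2e1 at 0.54, Ahsg at 0.35 and Alb at -0.13, with adjusted p from 0.347 to 0.66. Apoa1 and Ttr were not well above background on any lung array. The hepatocyte score ranged from -0.81 to 0.41 in the D0 lungs and from 0.03 to 0.41 in the D3 lungs, and over the 20 lungs its r was 0.54 with Fabp1 and 0.46 with Cpt1a. These r pool all dose groups, so they include the difference between the groups. The part of hepatocyte RNA in the Fabp1 and Cpt1a values was not tested.

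No receptor or co-regulator was called with dose in any tissue, of 12 tested in liver and forestomach and 11 in lung, and none had a trend. The same held for the other fasting-induced genes (12, 10 and 11 tested in liver, lung and forestomach). Of the lipogenic genes that feeding switches on, none was called at a dose in any tissue (11, 10 and 11 tested). Of 12 paralogs of the members tested in lung, 1 had a trend, where 11.6% of all lung probes had one. It was Pdk1, a relative of Pdk4 with the same enzyme activity, at 0.37 (adjusted p = 0.0139). In liver (13 tested) and forestomach (14 tested) no paralog was called.

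Clock genes were called with dose in lung. Of 10 output genes of the circadian clock, 6 rose at D3, where 1.88% of all lung probes were called, and 7 had a trend, where 11.6% did, led by the transcription factor gene Dbp (1.79 ± 0.34 at D3, adjusted p = 0.00298). The other 5 that rose were Per2, Per3, Nr1d2, Ciart and Tef, between 0.65 and 0.93, and Hlf had a trend. Of 3 clock genes of the opposite phase, Nfil3 (-0.97) and Clock (-0.65) fell at D3, and both and Arntl had a trend. Across the 20 lungs, Cpt1a had an r of 0.58 with the clock output score and -0.61 with the opposite-phase score. These r pool all dose groups, and Cpt1a and both scores differed with dose. The median clock output score, for example, was -0.27 at D0 and 0.41 at D3. The r values therefore do not separate a link between mice from the difference between dose groups. In liver no clock gene was called, and in forestomach only Nfil3 had a trend (-1.01, adjusted p = 0.0449). Whether the time of day of the tissue differed between groups was not tested.

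**Figure D4:**
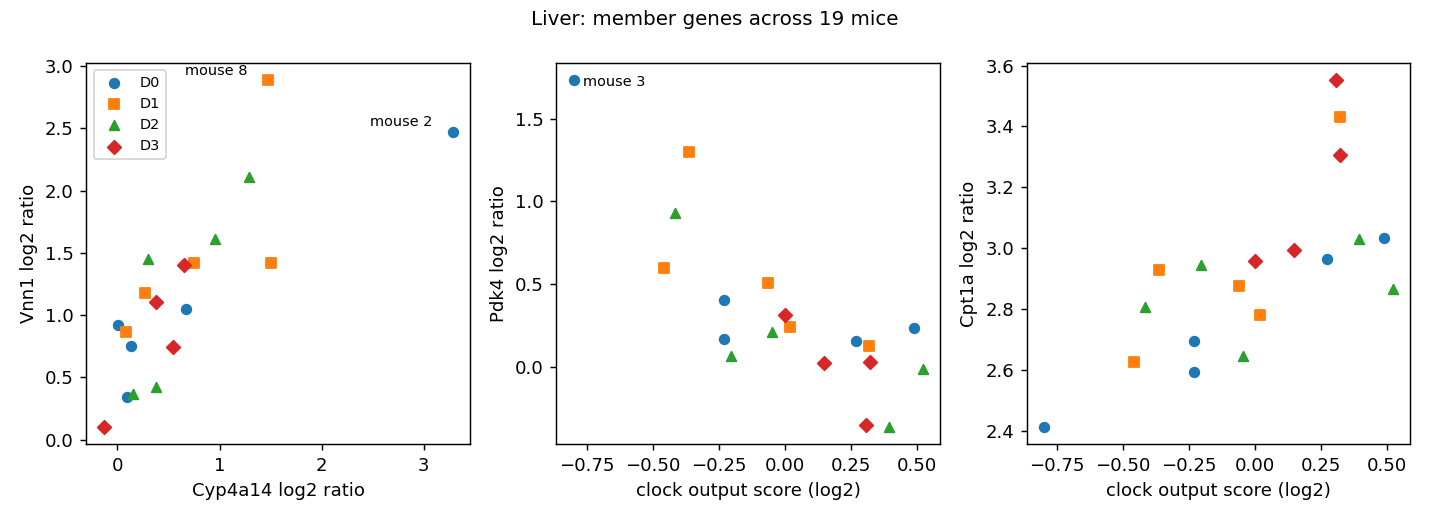
Each point is the liver of 1 mouse, shaped by dose group. The left panel plots Vnn1 against Cyp4a14 (log2 ratios), where mice 2 and 8 stand furthest out, and the other panels plot Pdk4 and Cpt1a (log2 ratios) against the clock output score (mean centred log2 ratio of 10 genes), which Pdk4 ran against and Cpt1a ran with.

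Among the 19 livers the members did not vary as 1 block. The points of these correlations share 3 slides and 1 reference RNA and include all 4 dose groups, and they are descriptions only. Cyp4a14 and Vnn1 varied together (r = 0.79, Spearman's rho = 0.79), as did Fgf21 and Vnn1 (r = 0.67). Cyp4a14 was well above background on only 7 of the 19 livers and Fgf21 on 11, so every correlation of these genes in liver includes values near the floor. Mouse 2, a control, was highest in Cyp4a14 and next to highest in Vnn1, and mouse 8, of D1, was highest in Vnn1 and lay below mice 2 and 7 in Cyp4a14, while Acot1 of mouse 8, at -2.01, was the lowest of all livers. Cyp4a10 went its own way, with an r of 0.13 to Cyp4a14 and 0.14 to Vnn1. Pdk4 and Cpt1a ran against each other (r = -0.58), Pdk4 with the opposite-phase clock score (r = 0.86) and against the output score (r = -0.81), and Cpt1a the reverse (r = -0.76 and 0.70). The liver with the highest Pdk4, mouse 3, had the lowest output score, at -0.80. With the summed other PPAR-alpha targets, Cyp4a14 had an r of 0.75, Vnn1 0.57 and Ehhadh -0.31. Mouse 2, far out in Cyp4a14, also had the highest score of those targets, at 0.18. Among the single genes most like a member over the 19 livers were Cyp4a31 and Zfp319 for Cyp4a10 (r = 0.87 and 0.79), Septin11 for Pdk4 (0.85), Cyth1 and Csnk1g2 for Cpt1a (0.87 and 0.86), and Mettl7a2 and Adh1 for Ehhadh (0.92 and 0.86). For the other members they were Ebpl and Umps for Vnn1 (0.86 and 0.82), Osgep and Cep152 for Cyp4a14 (0.82 and 0.82), Foxn3 and Txnl4b for Acot1 (0.82 and 0.79) and Calu and Rcsd1 for Fgf21 (0.74 and 0.73).

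In forestomach the members fell into 2 opposed sets that moved with the glandular stomach markers. Acot1, Pdk4 and Vnn1 varied together over the 19 arrays, with r of 0.78 for Acot1 and Pdk4, 0.90 for Acot1 and Vnn1 and 0.81 for Pdk4 and Vnn1. Cpt1a and Ehhadh varied together (r = 0.60) and against Acot1, Pdk4 and Vnn1. With the score of the 10 glandular markers, r was 0.82 for Cpt1a and 0.72 for Ehhadh, and it was -0.69 for Acot1, -0.67 for Pdk4 and -0.67 for Vnn1. Cyp4a10 had 0.02. The score ran from -3.03 to 2.17 in the D0 pieces, from 1.36 to 2.61 at D1, from -2.79 to 2.73 at D2 and from -2.56 to 2.41 at D3. All 5 D1 pieces were thus on the glandular side, while each of the other groups held both kinds, with 1 of 4 pieces at D0 on that side, mouse 2. That piece had the lowest Acot1 (3.92), Pdk4 (3.22) and Vnn1 (0.85) and the highest Cpt1a (1.51) and Ehhadh (2.27) of the D0 forestomachs. With the score as a covariate, chosen after seeing the data, again 0 members were called with dose. All 6 pieces of slide 3, the slide with the lower share of bright spots, had a score of at least 1.36, so slide and glandular content cannot be told apart there.

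**Figure D5:**
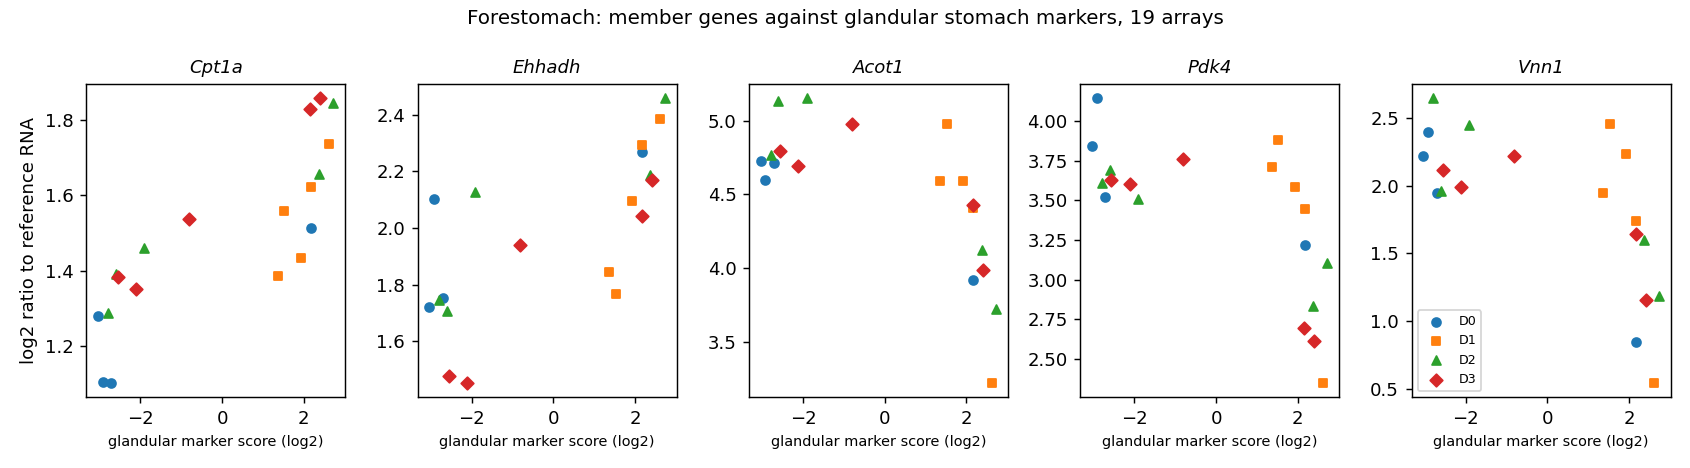
Each point is 1 forestomach array, shaped by dose group, with the glandular stomach marker score (mean centred log2 ratio of 10 genes) on the x axis and the log2 ratio of a member on the y axis. Cpt1a and Ehhadh were higher, and Acot1, Pdk4 and Vnn1 lower, in pieces with a high score.

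Among the genes most like the average member, by the mean z-score of those tested, were Stom, Tm6sf2, Glrx3, Svbp and Gtf2a1 in liver (r from 0.68 to 0.76, 19 arrays). In lung they were Ccdc69, Zfp39, Ptprcap, Rnf144b and Klra8 (0.72 to 0.74, 20 arrays), and in forestomach Plcg2, Setmar, Tmem19 and Stap2 (0.84 to 0.91, 19 arrays).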

How the data were processed

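RNA of lung, liver and forestomach was hybridised against a universal mouse reference RNA on Agilent two-colour arrays, with tissue in Cy5 and reference in Cy3 on every array, so a dye effect was not balanced by swaps. Per the file headers, the deposited spot intensities are median pixel signals and local backgrounds from Agilent's scanner software. The authors also deposited a table of normalised log2 ratios, which was used as an alternative (r with the ratios used here 0.995 to 0.998).

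Median signals, without background correction, were loess-normalised within each array. Background correction by normexp (offset 50) was used only as an alternative. Spots flagged as outliers (0.495%) were left out and spots of 1 probe averaged. Tests in a tissue took the probes that the scanner software marked as well above background in the tissue channel for a minimum of 4 of its arrays. Of 55681 probes, 26413 had a symbol through RefSeq accessions. Where a gene had several probes, the probe with the highest mean Cy5 signal stood for it, and the others are reported where they disagree. Dose groups were compared within each tissue, and tissues in 1 model of all arrays, with limma 3.58.1 in R 4.3.3 in place of the MAANOVA test of the study's methods. Adjusted p is by Benjamini-Hochberg over all probes tested, 2-sided. The scripts were tested on simulated data.

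The genes named are the 8 members, the list genes that passed a test with dose, defining markers, and the genes most correlated with a member. A few genes that this rule names are not reported here. Ppara, Rxra and Acot2 were named after their values were seen. Members and lists were chosen with earlier results of these data known. Same-numbered tissues came from the same mouse, and deviations from group means correlated between tissues with a median r of 0.13 (liver and lung), 0.06 (liver and forestomach) and 0.09 (lung and forestomach). Alternatives covered normalisation, signal, filter, fold limit, slide and mouse blocks, and leaving out each mouse.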

Additional observations from a re-analysis of the deposited data

Results flagged for a closer look

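In groups of 4 or 5 mice, 7 of the 80 combinations of member, tissue and dose group held 1 array far from the rest (8.75%), judged by its gap to the nearest mouse over the range of the group, a rule that by chance marks about 5% of groups. In liver, Cyp4a14 of D0 mouse 2 was 3.28 (nearest 0.67) and Pdk4 of D0 mouse 3 was 1.73 (nearest 0.40). Mouse 8 of D1 stood apart in liver for both Vnn1, at 2.89 (nearest 1.42), and Acot1, at -2.01 (nearest -0.41), in opposite directions. In lung, Pdk4 of D1 mouse 9 was 1.29 (nearest 0.67). In forestomach, Acot1 of D0 mouse 2 was 3.92 (nearest 4.60) and Pdk4 of D1 mouse 7 was 2.35 (nearest 3.44). Both of these pieces had a high glandular stomach score, 2.17 and 2.61, and the part of that tissue in the values was not tested.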

How the results depend on the processing

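The counts of members called with dose and between tissues were recomputed, giving 126 pairs of a count and an alternative. In 119 pairs the count equalled the main count or lay within 1.5-fold of it, and in 7 it did not. A further 236 pairs left out 1 mouse each. For the lung dose trend, the count of 1 member (Cpt1a) became 0 under median centring (slope 0.58, larger than the 0.35 by loess, adjusted p = 0.976), 0 with a fold of at least 1.5 over the doses as well, 2 with the Cy5 channel alone (Ehhadh joined), and 0 without the arrays of D0 mouse 5 and D2 mouse 14, the last chosen after seeing the data. It ranged from 0 to 1 without single mice. For lung dose groups against D0, the count of 0 became 1 with no minimum fold and 1 (Cpt1a) under median centring with slide as a block. Between liver and lung at D0, 8 became 5 with Agilent's processed signals, where Cyp4a14, Pdk4 and Vnn1 did not pass, and it ranged from 7 to 8 without single mice. The cause of these changes was not tested. With the mouse as a replicate block the counts between tissues stayed at 8, 7 and 3, and it changed no other call. Of 760 dose values of single members within a tissue, 754 stayed on the same side of the threshold. The 6 others were of Cpt1a and Ehhadh in lung. Of the values that passed in the main fit or in the alternative, 0 reversed. Changes of direction among values that passed in neither were not counted. Between tissues at D0, Cpt1a was lost and Vnn1 gained for liver and forestomach under median centring, Cyp4a14 was lost there with processed signals (adjusted p = 0.0995) and with no filter (adjusted p = 0.0609), and Vnn1 was lost for liver and lung in the authors' table (adjusted p = 0.0515). The alternative with normexp background correction used median signals. Signal over background limits Cyp4a14 and Fgf21 most.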
